A study of Mus musculus with 12 samples.

Results

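Integrins are the receptors by which cells hold on to the matrix and to each other, and this account follows the integrin subunits measured in stroma cultured from mouse bone marrow, the mixed layer of attached cells on which blood progenitors live. The subunits were found by gene symbol: every probe set whose single symbol in the platform annotation was Itga or Itgb followed by digits, or Itga2b, Itgam, Itgav, Itgax, Itgal or Itgae. This gave 8 genes of the 1974 with 1 symbol, measured by 12 of 3109 probe sets: Itga1, Itga3 (2 probe sets), Itga5, Itga10, Itgal, Itgav, Itgb3 and Itgb5 (4 probe sets). Other subunits, among them Itgb1 and Itgb2, are not analysed here. Expression was measured on 12 Affymetrix arrays, 4 from mice heterozygous at Crebbp (Crebbp+/-), 4 from mice heterozygous at Ep300 (Ep300+/-) and 4 from wild-type mice. The 2 genes encode related histone acetyltransferases that serve as transcriptional coactivators. All mice were C57BL/6 and 3 to 4 months old, and every culture, wild type included, was plated for 2 weeks in M5300 medium and then irradiated with 1500 cGy, so all 3 genotypes show irradiated stroma. The labels call the arrays biological replicates without saying whether animals were pooled, and the alleles are not described further in them.

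An integrin is a pair of 1 alpha and 1 beta chain, and the pair decides what it binds. Itga1 and Itga10 encode collagen-binding chains, Itga3 a laminin-binding chain and Itga5 a fibronectin-binding chain, all of which pair with the beta 1 chain. Itgav encodes the alpha V chain, which pairs with the products of Itgb3 and Itgb5 in receptors for vitronectin and other proteins with the RGD motif, and Itgal encodes the leukocyte chain that binds ICAM proteins. In marrow, integrins tether blood stem cells to the stroma, anchor endothelial cells to their basement membrane and hold osteoclasts to bone.

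The promoters of Itga10 and Itga3 are shown because these genes passed the test in opposite directions. They come from windows of 250 bases before a start of transcription in RefSeq (GRCm38.p6), with GC boxes (GGGCGG, either strand) in capitals. The Itga3 window precedes a start that lies within the annotated gene, and only its 120 bases before the gene are printed.
Itga10: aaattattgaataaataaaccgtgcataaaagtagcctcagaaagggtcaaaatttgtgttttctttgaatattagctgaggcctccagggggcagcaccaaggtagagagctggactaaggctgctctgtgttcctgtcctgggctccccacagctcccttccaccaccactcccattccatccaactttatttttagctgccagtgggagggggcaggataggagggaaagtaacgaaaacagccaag
Itga3: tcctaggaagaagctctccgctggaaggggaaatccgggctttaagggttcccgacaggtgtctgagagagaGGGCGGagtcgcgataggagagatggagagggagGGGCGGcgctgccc
The Itga10 window lies at chr3:96645334-96645583 on the plus strand and the printed Itga3 bases at chr11:95076845-95076964 on the minus strand, with 2 GC boxes. The whole Itga3 window held 3 GC boxes and 67.6% G and C, while Itga10 held 0 GC boxes and 48.0% G and C, against a median of 52.4% over 32851 such windows. Of the 8 genes, 6 had a window, 7 in all since Itga3 has a second start with 1 GC box. That window and the one of Itgav lie wholly within the annotated gene. Itgb5 held 3 GC boxes, Itga5 2, and Itga1 and Itgav 0. A GC box stood in 32.7% of all windows. None of the 7 held the cAMP response element that CREB binds (TGACGTCA, in 1.55% of all windows), its half-site (TGACG, 17.8%), an AP-1 motif (TGANTCA, 6.75%) or a TATA motif (TATAAA, 12.4%), each searched on both strands. The half-site is part of the full element, so the first 2 shares overlap. These are matches of letters only.

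The values are log2 GCRMA levels, comparable between arrays for a probe set but not between probe sets, and a difference of 1 is a 2-fold change. Array medians lay between 7.98 and 8.43. The targeted gene Crebbp stood between 7.67 and 7.88 on the Crebbp+/- arrays, between 8.48 and 8.73 on the Ep300+/- arrays and between 8.45 and 8.59 in wild type, and Ep300 is not analysed here. Reticular stroma markers, 6 of 7 measured, had mean levels from 9.78 to 11.91 on Crebbp+/- arrays, from 9.41 to 11.49 on Ep300+/- arrays and from 9.97 to 11.70 in wild type. Some arrays stood apart. The Y-linked transcript Eif2s3y was at 2.73 and 2.69 on Crebbp+/- 1 and 3 and at 8.41 or above on the other arrays. Tnf was at 14.38 on Crebbp+/- 3, 14.36 on Ep300+/- 3 and 12.29 on Ep300+/- 2, and at 9.80 or below elsewhere. On Crebbp+/- 4 the endothelial markers averaged 7.88, below the 9.48 to 9.83 of Crebbp+/- 1, 2 and 3.

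In Crebbp+/- against wild-type stroma, Itga3 rose on both of its probe sets and Itga10 fell. A probe set was called where limma's two-sided test, with 4 arrays a group, gave a Benjamini-Hochberg adjusted p under 0.05 over all 3109, and 3 of the 12 integrin probe sets were called, 2 higher and 1 lower. The background was 6.18% of all probe sets, 5.02% called higher and 1.16% called lower. The integrin median log2 fold change was -0.01, beside 0.24 over all probe sets, and it was -0.16 after quantile normalization and -0.21 after median centring, beside 0.02 and 0.04. Of the 6 negative values 4 belong to Itgb5 alone. In Crebbp+/- against Ep300+/- stroma the same 3 probe sets and Itgb3 were called, 3 higher and 1 lower, on a background of 6.4% (4.89% higher, 1.51% lower). In Ep300+/- against wild-type stroma 0 of the 12 were called by limma, on a background of 0%, and 1 of them, Itgb3, had an unadjusted p under 0.05, beside 126 of all 3109. Both heterozygotes were compared with the same 4 wild-type arrays. The table holds only probe sets that reached 6.64, the log2 of 100, on 3 arrays or more. Itga3 1421997_s_at reached it only on 3 Crebbp+/- arrays, and Itgb3 on 3 Crebbp+/- arrays, 0 Ep300+/- arrays and 1 wild-type array, so both entered through the group where they are high and lend no support to these counts. Itga5 reached it on 1 Crebbp+/- and 2 Ep300+/- arrays. Without these 3 probe sets 2 calls were left in Crebbp+/- against wild type, 1 higher and 1 lower, and 2 between the heterozygotes, 1 higher and 1 lower. Of the 2 probe sets left, Itga10 reached 6.64 on 0 Crebbp+/-, 3 Ep300+/- and 3 wild-type arrays. Itga3 1455158_at reached it on 4, 3 and 0. Against wild type neither reached it in its lower group. Each array reads a whole layer of several cell types, so a change in the number of cells of a type and one in RNA per cell cannot be told apart for any of these values.

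**Figure D1:**
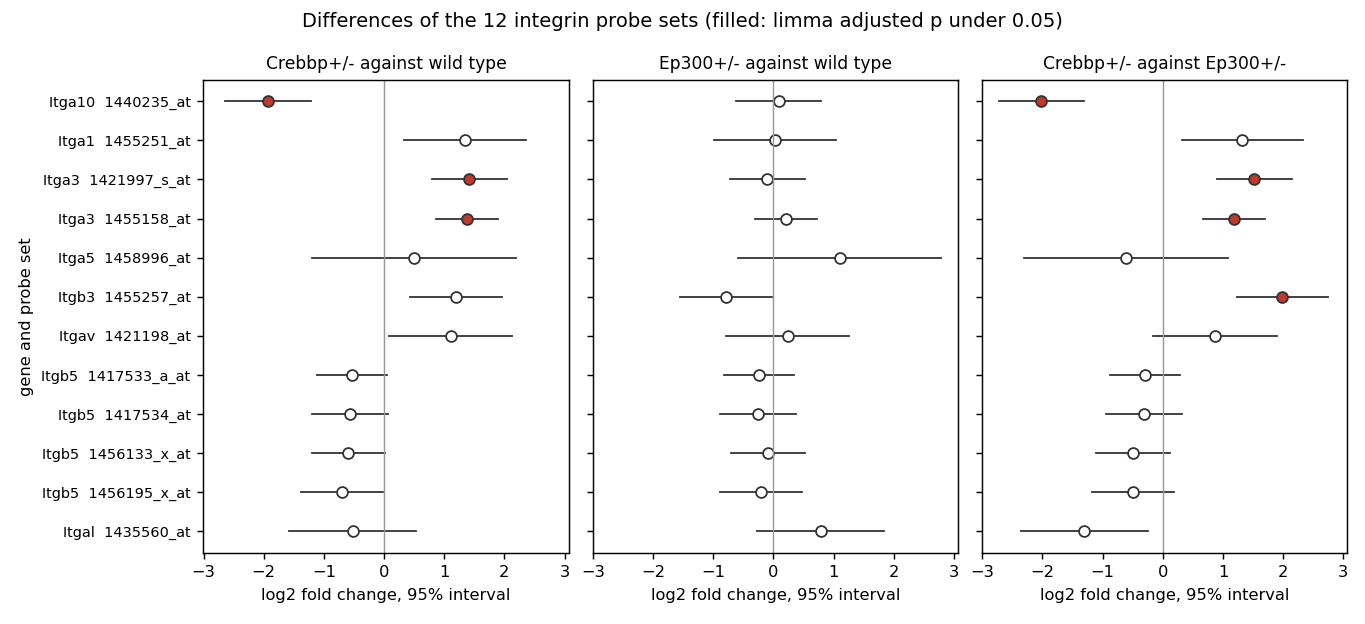
Log2 fold change of each of the 12 integrin probe sets with limma's 95% interval, for Crebbp+/- against wild type, Ep300+/- against wild type and Crebbp+/- against Ep300+/-, with filled points where the adjusted p was under 0.05. Itga10 lies near -2 and both Itga3 probe sets lie above 1 in the outer panels, while the Ep300+/- panel has every point but 1 between -0.79 and 0.79, the exception being Itga5 at 1.10.

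The number of calls depended on single arrays and on the pairing. Same-numbered arrays deviated from their group means together, with r over probe sets from 0.448 to 0.603 between Crebbp+/- and wild type and from 0.294 to 0.513 between the heterozygotes. Between Ep300+/- and wild type r ran from 0.0593 to 0.683. With the replicate number as a block, 6 integrin probe sets were called in Crebbp+/- against wild type, 5 higher and 1 lower, and 7 between the heterozygotes, 5 higher and 2 lower, while 26.1% and 24.4% of all probe sets were. Against wild type 0 were called without Crebbp+/- 1, without Crebbp+/- 2 or without wild-type 4. Of all probe sets only 0.289%, 0.225% and 0.161% were called there, beside 6.18% with all arrays, so calls were lost over the whole table. Without Crebbp+/- 4, 5 integrin probe sets were called, beside 12.3% of all probe sets. Between the heterozygotes 0 were called without Ep300+/- 1 and 1, Itga10, without Crebbp+/- 1. The share of all probe sets called in these settings is not given here. With Eif2s3y as a covariate, or without Crebbp+/- 1 and 3, 0 were called in either comparison, and of all probe sets 0 were called in either with the covariate and 4 and 2 without these arrays. Without Crebbp+/- 3 and Ep300+/- 3 the counts were 3 and 4, as with all arrays. Every called fold change kept its sign in each of the 21 alternatives run. In some of these, the replicate block and leaving out an array of the third genotype among them, the value itself could not change. A kept sign there shows nothing.

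Among the collagen-binding chains, Itga10, a subunit known from cartilage, was low in Crebbp+/- stroma. Its log2 levels were 5.22, 4.68, 4.41 and 5.73 on Crebbp+/- 1 to 4, 7.22, 7.20, 6.51 and 7.19 on Ep300+/- 1 to 4, and 6.77, 6.52, 7.11 and 7.38 on wild-type 1 to 4. All 4 Crebbp+/- arrays lay below every array of the other genotypes, and the Ep300+/- and wild-type arrays overlapped. Itga10 fell 3.82-fold in Crebbp+/- stroma, to 26.2% of the wild-type level (-1.93 on the log2 scale, SE 0.33, limma's adjusted p = 0.0129). Against Ep300+/- stroma its difference was -2.02 on the log2 scale (SE 0.33, limma's adjusted p = 0.0116). Shuffling the arrays in every possible way (an exact permutation test, two-sided) gave p = 0.0286 for each, the smallest that 4 against 4 allow. The shuffling ignored the replicate numbers, so any pairing by them is left out. How many of all probe sets reach this p was not counted. Ep300+/- stroma had the highest mean, 7.03 ± 0.35 (SD, n = 4), next to 6.94 ± 0.38 in wild type, and these neighbours differed by 0.09 with a 95% interval from -0.63 to 0.80. No detection call comes with the values, so how far the lower levels stand above background is unknown. The call against wild type was lost without Crebbp+/- 1 (limma's adjusted p = 0.0548), without Crebbp+/- 2 (0.0503) and without wild-type 4 (0.0501), and that against Ep300+/- without Ep300+/- 1 (0.0547). Both calls were also lost with Eif2s3y as a covariate and without Crebbp+/- 1 and 3. Against wild type the log2 fold change was then -1.64 and -1.74 (limma's adjusted p = 0.266 and 0.228).

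Only 2 of 10 cartilage markers were measured. Comp, a cartilage matrix protein, fell in Crebbp+/- against wild-type stroma (log2 fold change -2.71, limma's adjusted p = 0.00155), and Col2a1, the cartilage collagen, had 0.88 (limma's adjusted p = 0.199). The mean of the pair ran from 7.82 to 8.60 on Crebbp+/- arrays, from 8.43 to 9.55 on Ep300+/- arrays and from 8.88 to 9.46 on wild-type arrays. Of 8 osteoblast markers 3 were measured, with a mean from 8.24 to 8.87 on Crebbp+/- arrays, from 8.84 to 9.89 on Ep300+/- arrays and from 9.46 to 9.98 in wild type. The part of these cells in the Itga10 result was not tested.

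Itga1, the other collagen-binding chain, did not pass the test. Its levels were 9.42, 9.61, 9.94 and 7.89 on Crebbp+/- 1 to 4, 8.02, 7.88, 8.68 and 6.99 on Ep300+/- 1 to 4, and 8.50, 7.76, 7.85 and 7.37 on wild-type 1 to 4. The first 3 Crebbp+/- arrays lay above all others and the fourth lay within them. The log2 fold change had an SE of 0.47 in both comparisons and was 1.35 against wild type (limma's adjusted p = 0.0987) and 1.32 against Ep300+/- (0.104). Without Crebbp+/- 4 it was 1.79 and 1.76 and passed, with limma's adjusted p-values of 0.0153 and 0.0157, and with the replicate block the values of 1.35 and 1.32 passed with 0.0123 and 0.0114. With Eif2s3y as a covariate it was 0.86 and 0.89 (limma's adjusted p = 0.563 and 0.478), and without Crebbp+/- 1 and 3 it was 0.88 and 0.86 (0.451 and 0.429). The mean was 9.21 ± 0.91 in Crebbp+/- stroma, 7.89 ± 0.69 in Ep300+/- and 7.87 ± 0.47 in wild type (SD, n = 4), and the last 2 differed by 0.02 with an interval from -0.99 to 1.03. Itga1 and Itga10 therefore had fold changes of opposite sign in Crebbp+/- stroma, and over the 12 arrays their levels had a Pearson r of -0.87, and of -0.79 for deviations from the genotype means. Such an r is a description, since arrays of a genotype share their background.

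**Figure D2:**
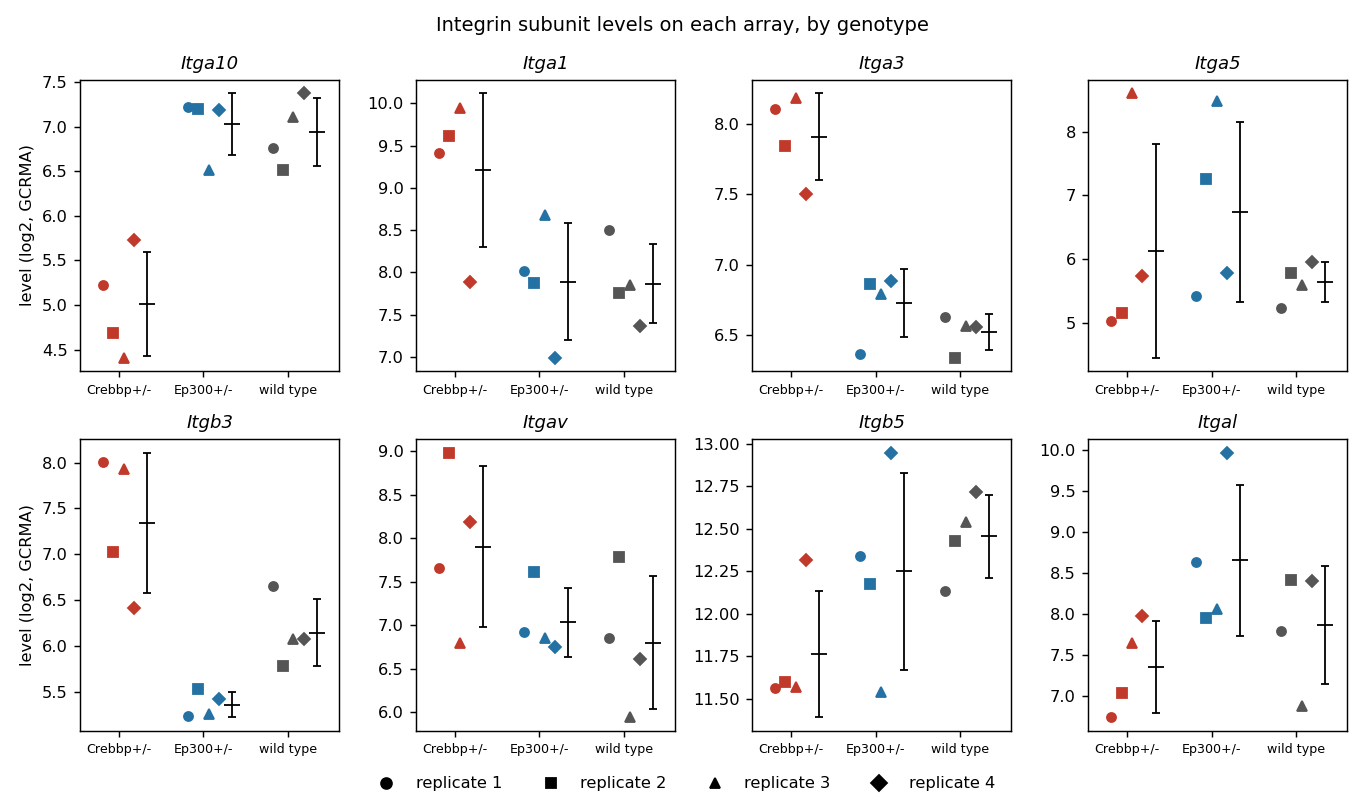
Log2 level on each array for the 8 integrin genes, each by its probe set of highest mean, with marker shape for the replicate number, colour for the genotype and a bar for the mean ± SD of 4 arrays. All Crebbp+/- points lie below all others for Itga10 and above all others for Itga3, while for Itga5 the points of Crebbp+/- 3 and Ep300+/- 2 and 3 stand above the rest.

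Itga3, the laminin-binding chain of many epithelia and of vessel walls, rose in Crebbp+/- stroma on both of its probe sets. On probe set 1455158_at its levels were 8.11, 7.84, 8.18 and 7.50 on Crebbp+/- 1 to 4, 6.37, 6.86, 6.79 and 6.88 on Ep300+/- 1 to 4, and 6.63, 6.34, 6.56 and 6.56 on wild-type 1 to 4. On 1421997_s_at they were 7.50, 6.97, 7.29 and 6.42 on Crebbp+/- 1 to 4, 5.35, 5.92, 5.47 and 5.35 on Ep300+/- 1 to 4, and 5.98, 5.41, 5.33 and 5.77 on wild-type 1 to 4. Every Crebbp+/- array exceeded all 8 others on both, but the second passed the filter on low values only through Crebbp+/- stroma and is no independent support for the first. Against wild type Itga3 rose 2.61-fold on the first (1.38 on the log2 scale, SE 0.24, adjusted p = 0.0129) and 2.68-fold on the second (1.42, SE 0.29, adjusted p = 0.0184, both by limma). Against Ep300+/- stroma limma gave 1.18 (SE 0.24, adjusted p = 0.0173) and 1.52 (SE 0.29, adjusted p = 0.0153) on the log2 scale. Each of these 4 differences gave an exact two-sided permutation p of 0.0286, the smallest possible. For 1421997_s_at neither this p nor limma's lends support, since its high Crebbp+/- level brought it into the table.

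The 2 probe sets placed the other genotypes in opposite order, without a difference beyond their spread. On 1455158_at Ep300+/- stroma had 6.73 ± 0.24 and wild type 6.52 ± 0.13 (SD, n = 4), a difference of 0.20 with an interval from -0.31 to 0.72. On 1421997_s_at they had 5.52 ± 0.27 and 5.62 ± 0.31, a difference of -0.10 with an interval from -0.72 to 0.52. By Affymetrix naming the suffix _s marks probes shared by several transcripts, so the second probe set is less specific. Against wild type both calls were lost without Crebbp+/- 1 (limma's adjusted p = 0.0588 and 0.0812), Crebbp+/- 2 (0.0503 and 0.0602) or wild-type 4 (0.0501 and 0.0669), and the second also without Crebbp+/- 3 (0.0528), wild-type 2 (0.0619) or wild-type 3 (0.0526). Against Ep300+/- stroma both were lost without Crebbp+/- 1 (0.0766 and 0.0691) or Ep300+/- 1 (0.0675 and 0.0579), and the first also without Crebbp+/- 2 (0.0547) and in a fit of the 2 heterozygotes alone (0.0685). With Eif2s3y as a covariate, or without Crebbp+/- 1 and 3, every one of these calls was lost. Against wild type the covariate gave 1.13 and 1.03 on the log2 scale (limma's adjusted p = 0.266 and 0.299). Without Crebbp+/- 1 and 3 the values were 1.15 and 1.07 (0.228 and 0.233).

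Itga5, which binds fibronectin, was high on 3 arrays of 2 genotypes. Its levels were 5.03, 5.17, 8.60 and 5.74 on Crebbp+/- 1 to 4, 5.43, 7.26, 8.48 and 5.79 on Ep300+/- 1 to 4, and 5.23, 5.78, 5.60 and 5.96 on wild-type 1 to 4. Those above 7 were Crebbp+/- 3 and Ep300+/- 3 and 2, the arrays on which Tnf was at 14.38, 14.36 and 12.29. The log2 fold change was 0.49 in Crebbp+/- against wild type (limma's adjusted p = 0.694), 1.10 in Ep300+/- (0.965) and -0.61 between the heterozygotes (0.724), with intervals from -1.20 to 2.19, from -0.59 to 2.79 and from -2.30 to 1.09. Without Crebbp+/- 3 and Ep300+/- 3 it was -0.33 in Crebbp+/- and 0.52 in Ep300+/- against wild type, and -0.85 between the heterozygotes. With Ep300+/- 3 alone left out the last was -0.028. The part of the Tnf-high state in these values was not tested.

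Itgb3, the beta chain of the vitronectin receptor of endothelium and osteoclasts, was highest in Crebbp+/- and lowest in Ep300+/- stroma. Its levels were 8.01, 7.03, 7.94 and 6.42 on Crebbp+/- 1 to 4, 5.24, 5.53, 5.25 and 5.42 on Ep300+/- 1 to 4, and 6.65, 5.78, 6.07 and 6.08 on wild-type 1 to 4. The Ep300+/- arrays lay below every other array, and Crebbp+/- 4 lay within wild type. Between the heterozygotes Itgb3 was 3.96-fold higher in Crebbp+/- (1.99 on the log2 scale, SE 0.35, limma's adjusted p = 0.0127), with the smallest possible exact permutation p, 0.0286. Against wild type neither heterozygote passed: Crebbp+/- had 1.20 (SE 0.35, interval from 0.44 to 1.96, limma's adjusted p = 0.0627), and Ep300+/- had -0.79 (SE 0.35, interval from -1.55 to -0.03, limma's adjusted p = 0.965). The means were 7.35 ± 0.76 in Crebbp+/-, 5.36 ± 0.14 in Ep300+/- and 6.15 ± 0.37 in wild type (SD, n = 4). The Crebbp+/- difference from wild type passed with the replicate block (limma's adjusted p = 0.0244) and without Crebbp+/- 4, where it was 1.51 (0.0108). It was 0.49 with Eif2s3y as a covariate (0.589) and 0.58 without Crebbp+/- 1 and 3 (0.427). The difference between the heterozygotes is conditioned on the high Crebbp+/- level that brought Itgb3 into the table. It was 1.36 both with the covariate and without Crebbp+/- 1 and 3 (0.179 and 0.176), and it also lost its call without Crebbp+/- 1 (0.0616) or Ep300+/- 1 (0.0547).

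Itgav, the alpha chain that pairs with both measured beta chains, varied widely within genotypes. Its levels were 7.65, 8.99, 6.79 and 8.19 on Crebbp+/- 1 to 4, 6.92, 7.61, 6.85 and 6.74 on Ep300+/- 1 to 4, and 6.85, 7.79, 5.94 and 6.61 on wild-type 1 to 4. Replicate 2 was the highest array in every genotype and the groups overlapped. The log2 fold change was 1.11 in Crebbp+/- against wild type (SE 0.47, limma's adjusted p = 0.160), 0.24 in Ep300+/- (limma's adjusted p = 0.967) and 0.87 between the heterozygotes (limma's adjusted p = 0.280). With the replicate block the first and the last passed (limma's adjusted p = 0.0176 and 0.0380). With Eif2s3y as a covariate they were 1.76 and 1.45 (0.284 and 0.260), and without Crebbp+/- 1 and 3 they were 1.79 and 1.55 (0.232 and 0.203), which did not pass. The neighbours in level, Ep300+/- at 7.03 ± 0.39 and wild type at 6.80 ± 0.77 (SD, n = 4), overlapped.

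Itgb5, the other beta partner of Itgav, had 4 probe sets that moved together, with Pearson r from 0.936 to 0.978 between them over the 12 arrays. On the probe set of highest mean, 1456195_x_at, the levels were 11.56, 11.60, 11.57 and 12.32 on Crebbp+/- 1 to 4, 12.34, 12.17, 11.54 and 12.95 on Ep300+/- 1 to 4, and 12.13, 12.43, 12.54 and 12.71 on wild-type 1 to 4. The first 3 Crebbp+/- arrays and Ep300+/- 3 were the low ones. Across the 4 probe sets the log2 fold change ran from -0.69 to -0.54 in Crebbp+/- against wild type (limma's adjusted p from 0.180 to 0.229), from -0.25 to -0.09 in Ep300+/- (from 0.965 to 0.980) and from -0.50 to -0.29 between the heterozygotes (from 0.306 to 0.592). None passed limma's test, also not with the replicate block, where the lowest adjusted p was 0.0507. On 1417533_a_at and 1456133_x_at all 4 Crebbp+/- arrays lay below every wild-type array, with the smallest possible exact two-sided permutation p, 0.0286. On the other 2 probe sets these groups overlapped and that test gave 0.0571. How many of all probe sets separated these groups was not counted. In this comparison 831 of all 3109 had an unadjusted limma p under 0.05. The order on each of the 4 probe sets was wild type, Ep300+/-, Crebbp+/- from high to low, and the difference between neighbours in it did not pass for any. The suffix _x marks probes that resemble other sequences, and the 2 probe sets without it gave -0.54 and -0.56 against wild type. Itgb5 and Itga1 had a Pearson r of -0.93 on these arrays.

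Itgal, the leukocyte chain, had levels of 6.74, 7.04, 7.65 and 7.98 on Crebbp+/- 1 to 4, 8.63, 7.96, 8.06 and 9.97 on Ep300+/- 1 to 4, and 7.79, 8.41, 6.88 and 8.40 on wild-type 1 to 4. Ep300+/- arrays were high and Crebbp+/- arrays low, with 1 Crebbp+/- array reaching into the Ep300+/- range. The log2 fold change between the heterozygotes was -1.30 (SE 0.49, interval from -2.36 to -0.25, limma's adjusted p = 0.118) and passed with the replicate block (0.0337), but not with Eif2s3y as a covariate (-1.41, 0.319). In Crebbp+/- against wild type it was -0.52 (limma's adjusted p = 0.515) and in Ep300+/- 0.79 (0.965). Macrophage markers, 4 of 15 measured, had mean levels from 12.28 to 13.22 on Crebbp+/- arrays, from 12.38 to 13.48 on Ep300+/- arrays and from 12.23 to 12.57 in wild type, and none of the granulocyte, dendritic cell, or T, NK and B cell markers is analysed here.

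Endothelial markers, like Itgb3, Itga3 and Itga1, were highest on Crebbp+/- 1, 2 and 3. Of 14 listed, 13 were measured, and their mean ran from 7.88 to 9.83 on Crebbp+/- arrays, from 6.49 to 7.44 on Ep300+/- arrays and from 7.04 to 8.22 in wild type. In Crebbp+/- stroma 8 of the 13 rose against wild type (6.64% of genes were called, 5.22% higher and 1.42% lower) and all 13 against Ep300+/- (7.09%, 5.22% higher and 1.87% lower), and in Ep300+/- against wild type 0 were called by limma. Of these markers, Kdr, Tie1, Cldn5, Icam2 and Erg had a mean above the filter's log2 level of 6.64 in Crebbp+/- stroma only. They may have entered the table through the group where they are high, so they lend no support to these counts. The mean of the 13 includes them, so its gap between genotypes rests partly on them. Of the other markers, Pecam1, Cdh5, Emcn, Esam, Robo4 and Egfl7 were called against wild type, and Plvap and Eng were not. On Crebbp+/- 4, where the markers were at 7.88, Itgb3 and Itga1 were at 6.42 and 7.89, within wild type, while Itga3 at 7.50 stayed above all wild-type and Ep300+/- arrays. On wild-type 1, where the markers reached 8.22, Itgb3 at 6.65 and Itga1 at 8.50 exceeded Crebbp+/- 4, while Itga3 at 6.63 did not. Among Ep300+/- arrays the markers were highest on Ep300+/- 3, at 7.44. There Itga1 was also highest, at 8.68, but Itgb3 at 5.25 lay below Ep300+/- 2 and 4. Pericyte and smooth muscle markers, 4 of 8 measured, ran from 8.97 to 9.52, from 7.46 to 8.48 and from 7.49 to 8.66 in Crebbp+/-, Ep300+/- and wild type. Among them Myh11 had means of 7.41, 6.28 and 6.56 in that order, and may also have entered through Crebbp+/- stroma. Osteoclast markers, 3 of 9 measured, ran from 8.93 to 11.03, from 10.54 to 11.17 and from 9.48 to 10.82, and megakaryocyte and platelet markers, 2 of 8 measured, from 8.73 to 9.69, from 9.32 to 10.12 and from 9.04 to 10.12. The part of any of these cells in the integrin values was not tested.

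**Figure D3:**
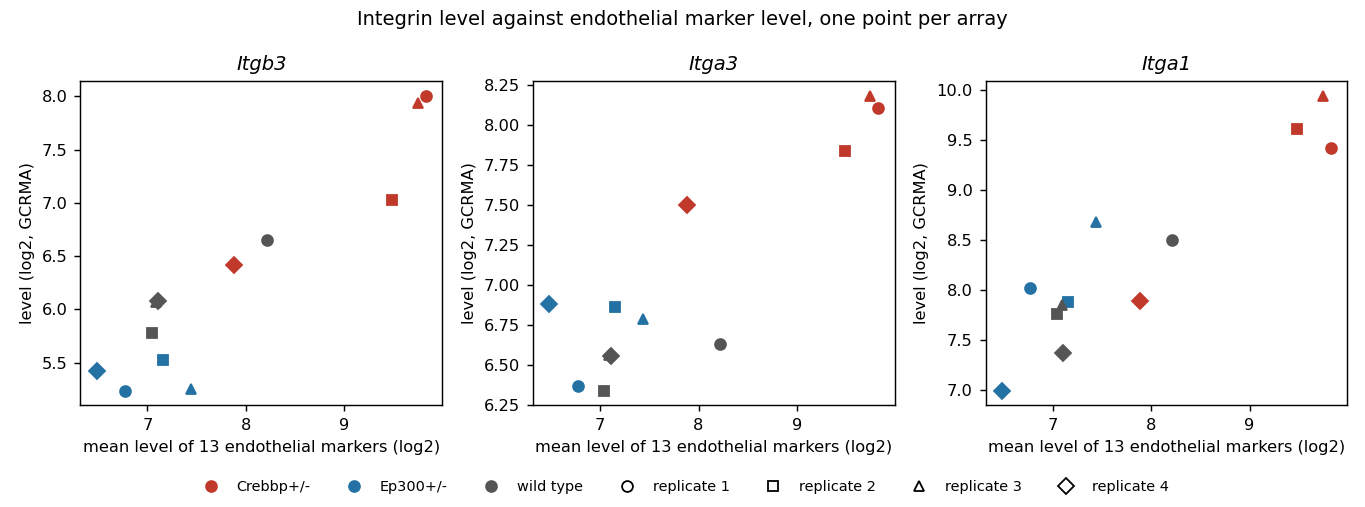
Log2 level of Itgb3, Itga3 (1455158_at) and Itga1 on each array, drawn against the mean log2 level of the 13 endothelial markers on the same array, with colour for genotype and shape for replicate number. Crebbp+/- 1, 2 and 3 stand at the upper right in each panel, and Crebbp+/- 4, at a marker mean of 7.88, stands within wild type for Itgb3 and Itga1 and above it for Itga3. Kdr, Tie1, Cldn5, Icam2 and Erg are in this mean and may have entered the table through Crebbp+/- stroma.

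Among 1966 other genes, those closest to Itgb3 over the 12 arrays by Pearson r were Plvap (0.96), Bcl6b (0.96) and Egfl7 (0.95), with 0.90, 0.90 and 0.85 for deviations from the genotype means. Plvap encodes a protein of endothelial fenestrae, and Egfl7 a secreted endothelial protein. Their log2 fold changes between the heterozygotes were 1.62, 1.93 and 2.14, and the values of Ep300+/- against wild type were -0.62, -0.36 and -0.42. The closest to Itga10 were Hoxc8 (0.96), Crebbp (0.95) and the water channel Aqp1 (0.94), with 0.87, 0.63 and 0.77 for deviations. Hoxc8 fell by 1.36 and Aqp1 by 1.98 on the log2 scale in Crebbp+/- against wild type, with limma's adjusted p-values of 0.0382 and 0.0202. These genes are the nearest of many, and all share the genotype difference with their integrin. Itga3 and Itgb3 had an r of 0.84 on 1455158_at and 0.93 on 1421997_s_at, with 0.83 and 0.87 for deviations from the genotype means. Itgb3 and Itga3 1421997_s_at both entered the table through their high Crebbp+/- level, so their r over the 12 arrays lends no support.

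Of 98 other genes of the integrin pathway in 5 lists, 30 were measured. In Crebbp+/- against wild type 1 rose, 3 fell and 26 did not pass, and the median log2 fold change was 0.26 beside 0.28 over all 1974 genes. Between the heterozygotes 4 were higher and 3 lower in Crebbp+/-, with a median of 0.34 beside 0.08 over all genes. Among the 4 higher was Icam2, which may have entered the table through the group where it is high and lends no support to that count. In Ep300+/- against wild type 0 of 30 were called by limma while 3 had an unadjusted p under 0.05. The share called in the first 2 comparisons stood beside 6.64% and 7.09% of all genes.

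Matrix ligands were measured for 14 of 30 listed. Ibsp, the bone sialoprotein that binds alpha V beta 3 and also an osteoblast marker here, fell in Crebbp+/- stroma, at 10.23 against 11.98 in wild type (-1.75 on the log2 scale, SE 0.42, limma's adjusted p = 0.0293), and was lower than in Ep300+/- (-1.67, limma's adjusted p = 0.0321). Thbs2, a thrombospondin, was higher in Crebbp+/- than in Ep300+/- (1.07, limma's adjusted p = 0.0406).

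Of 10 ligands on cells 4 were measured. F11r, a junction protein that can bind the Itgal chain's integrin, rose in Crebbp+/- stroma, at 8.47 against 7.11 in wild type (1.36 on the log2 scale, SE 0.27, limma's adjusted p = 0.0184), and was higher than in Ep300+/- (1.08, limma's adjusted p = 0.0354). Icam2, an endothelial ligand of the Itgal chain and also an endothelial marker here, was higher than in Ep300+/- (2.92, limma's adjusted p = 0.0253). It had 2.43 against wild type (limma's adjusted p = 0.0509). Its mean was 7.36 in Crebbp+/-, 4.44 in Ep300+/- and 4.94 in wild type. Icam2 may have entered the table through Crebbp+/- stroma, where it is high, so its call lends no support to the counts.

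Inside the cell, 6 of 30 activators and adaptors were measured and 0 were called by limma in any comparison. Vcl, the actin linker vinculin, had 1.13 in Crebbp+/- against wild type and 1.22 against Ep300+/- (limma's adjusted p = 0.0857 and 0.0650), and Parvb, a parvin that joins integrins to actin, had -0.77 and -0.76 (0.0962 and 0.0968). Of 15 signalling enzymes 3 were measured, and Pik3cg, the leukocyte PI3-kinase gamma, fell in Crebbp+/- stroma against wild type (-0.93 on the log2 scale, SE 0.23, limma's adjusted p = 0.0326) and was lower than in Ep300+/- (-0.91, limma's adjusted p = 0.0317). Of 13 membrane partners 3 were measured. Itgbl1, a secreted protein resembling a beta chain and no subunit, fell against wild type (-1.28, SE 0.29, limma's adjusted p = 0.0264) and was lower than in Ep300+/- (-1.37, limma's adjusted p = 0.0218). Tspan32, a blood-cell tetraspanin, was higher in Crebbp+/- than in Ep300+/- (1.58, SE 0.23, limma's adjusted p = 0.00805) and had -1.20 in Ep300+/- against wild type (limma's adjusted p = 0.166).

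**Figure D4:**
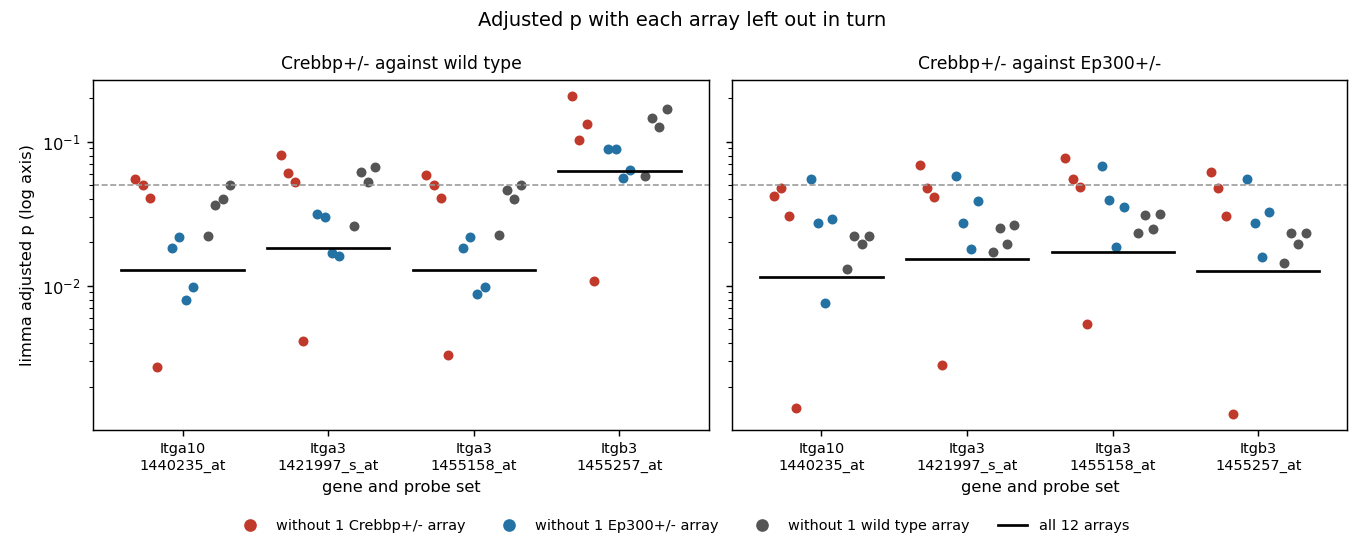
Limma adjusted p, on a log axis, for Itga10, the 2 Itga3 probe sets and Itgb3 with each of the 12 arrays left out in turn (points, coloured by the genotype of the missing array) and with all arrays (black lines), for Crebbp+/- against wild type and against Ep300+/-. The dashed line marks 0.05. Leaving out Crebbp+/- 4 gives the lowest value for every probe set in both panels, and Itga10 against Ep300+/- crosses the line for 1 array.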

How the data were processed

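The authors deposited 1 table of log2 values. Per the submitters' processing notes it was made with GCRMA, a method that removes background using probe sequence, normalizes arrays together and gives 1 value a probe set. Its version and chip definition: not given in the sources used here. Of 3127 probe sets, 18 were controls. The other 3109 each had an interquartile range of 0.500 or more and reached 6.64 (the log2 of 100) on 3 arrays or more, so flat or dim probe sets are not analysed here. Of these, 2486 had 1 gene symbol. All 12 integrin probe sets matched a RefSeq gene (GRCm38.p6) by ID.

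Nothing was normalized again. Differences came from lmFit and eBayes of limma 3.58.1 (R 4.3.3), tested on simulated data and fitted once over the 12 arrays with 3 genotype means and no covariate, as the labels name no batch. For a list gene the probe set with the highest mean was used. The number of arrays limits the precision, and p-values measure only the spread between these arrays. Integrins were named by the symbol rule. Described array by array were Itga10, Itgb3 and those with an unadjusted p under 0.05, and Itga5 was added after its values were seen. From the lists, called genes were named, or the 2 of smallest p where a list had none. The members and lists were chosen with earlier results of these data known.

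Replicate numbers recur in each genotype, and what a number shares is not stated. Deviations of same-numbered arrays correlated with every r above 0.1 between Crebbp+/- and wild type and between the heterozygotes, so the numbers were taken to pair these arrays. Between Ep300+/- and wild type r was 0.534, 0.345, 0.0593 and 0.683 for replicates 1 to 4. Because of the lowest these arrays were taken as unpaired, although a number that pairs both other comparisons would pair this one too. The main fit and the exact permutation tests used no pairing, so their calls and p-values leave it out. The replicate block was run as an alternative to the main fit only. Alternatives were quantile normalization, median centring, a minimum mean of 6, a trended and robust eBayes, a fit of 2 genotypes, the replicate block, Eif2s3y as a covariate, a fold minimum of 1.5 and leaving out each array. Leaving out Crebbp+/- 3 with Ep300+/- 3, or Crebbp+/- 1 with 3, was added after seeing the data.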

Additional observations from a re-analysis of the deposited data

Results flagged for a closer look

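In 36 groups of 4 arrays (12 integrin probe sets in 3 genotypes), 2 held an array whose gap to its nearest neighbour was large for the group's range, and chance gives about 1 such group in 20. Itga10 was at 6.51 on Ep300+/- 3, below 7.19 to 7.22 on the other 3 Ep300+/- arrays. Without Ep300+/- 3 its log2 fold change between the heterozygotes was -2.19. Itgb5 (1456195_x_at) was at 12.32 on Crebbp+/- 4, above 11.56 to 11.60 on the other 3 Crebbp+/- arrays, and without it the log2 fold change against wild type was -0.88.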

How the results depend on the processing

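Of 147 values of the 7 called differences (Itga10 and both Itga3 probe sets in 2 comparisons, Itgb3 in 1) over the alternatives, 147 kept their sign, 112 stayed called and 35 did not. Some alternatives, such as the replicate block or leaving out an array of the third genotype, cannot change the value, so a kept sign there shows nothing. The number of integrin probe sets called in Crebbp+/- against wild type was 3, and it was 6 with the replicate block, 0 with Eif2s3y as a covariate, 0 without Crebbp+/- 1 and 3, and from 0 to 5 with 1 array left out. Between the heterozygotes it was 4, and 7 with the replicate block, 0 with the covariate, 0 without Crebbp+/- 1 and 3, and from 0 to 5 with 1 array left out. In Ep300+/- against wild type it was 0 in each alternative, the replicate block included. With 1 array left out, the share of all probe sets called in Crebbp+/- against wild type ran from 0.161% to 12.3%. The covariate varies almost only between Crebbp+/- arrays, so it leaves the genotype and these arrays hard to separate. The median over all probe sets in Crebbp+/- against wild type was 0.24, and 0.02 after quantile normalization, which gave 120 higher and 72 lower calls in place of 156 and 36. The called changes were then -2.15 for Itga10 and 1.25 and 1.34 for Itga3. Differences that did not pass changed sign in some settings. For Itga5 in Crebbp+/- against wild type the value was -0.086 with the covariate, -0.33 without Crebbp+/- 3 and Ep300+/- 3, -0.19 without Crebbp+/- 1 and 3, and from -0.33 to 0.86 with 1 array left out. In Ep300+/- against wild type, Itga1 was -0.065 after quantile normalization, -0.034 after median centring, -0.035 with the covariate, -0.24 without Crebbp+/- 3 and Ep300+/- 3 and from -0.24 to 0.32 with 1 array left out. There also, with 1 array left out, Itga10 ran from -0.056 to 0.26, Itga3 (1421997_s_at) from -0.23 to 0.021, Itgav from -0.049 to 0.57, Itgb5 (1456133_x_at) from -0.29 to 0.11 and Itgb5 (1456195_x_at) from -0.44 to 0.032, and the last 2 were 0.11 and 0.032 without Crebbp+/- 3 and Ep300+/- 3. The cause of these changes was not tested.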
